A study of Mus musculus with 6 samples.

Results

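The transcripts described here are those of 52 genes for proteins that hepatocytes, the parenchymal cells of the liver, secrete into the blood plasma. They were taken by symbol from a table of 22298 genes measured by sequencing RNA from sinusoidal endothelial cells of the mouse liver, which form the porous wall of its capillaries. Every one of the 52 symbols stood on 1 row of the table. The genes were divided by textbook roles into 14 acute-phase genes, whose transcription in the liver is raised by inflammation, and 38 constitutive genes, which the liver transcribes steadily and some of which fall during inflammation. The rule uses the symbol and no measured value, but the list of symbols and its division into classes were drawn up with earlier results of these data known.

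Hepatocytes make most plasma proteins, among them albumin, the apolipoproteins that carry lipid, the serpin protease inhibitors and the fibrinogen chains. During an acute-phase response, interleukin 6 acting through STAT3 and interleukin 1 acting through NF-kB and C/EBP factors raise a subset of them, of which serum amyloid A and orosomucoid respond most in mice. Sinusoidal endothelial cells are not the source of albumin or of most of these proteins, and such transcripts in an endothelial preparation are commonly taken as RNA of hepatocytes or hepatocyte debris. A few members have other known sources as well: Apoe is made by macrophages, Lrg1 by endothelial cells and neutrophils, and Hp is stored in neutrophil granules.

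The 6 libraries came from wild-type mice, with 3 libraries titled aging (replicates 2, 3 and 5) and 3 titled control, labelled ct (replicates 1, 2 and 3). The age label contradicts the titles, since it gives 8 weeks for the aging libraries and 24 months for the control libraries, so the names aging and control stand for the titles only and no direction in age is drawn. The labels do not give sex, strain, the method of cell isolation or whether each library is 1 mouse, so p-values measure the spread between libraries, which may be technical. Library totals lay between 15999220 and 17871220 counts. All 15 sinusoidal endothelial markers had counts in every library, with summed levels of 34345 to 38539 CPM (counts scaled by library size) in the aging libraries and 34161 to 41552 CPM in the control libraries.

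The 52 genes together held 0.445% to 0.511% of all counts in the aging libraries and 0.418% to 0.486% in the control libraries. Apoe, which carries lipid in remnant lipoproteins, accounted for 58.9% to 61.0% of these counts in the aging libraries and for 54.4% to 61.8% in the control libraries. Per length, in the FPKM that the authors deposited, which scale reads by gene length and library size, Apoe led with a level of 2013 ± 125 FPKM in the aging libraries and 1806 ± 130 FPKM in the control libraries (SD, n = 3 each). Albumin (Alb) followed with 252 ± 16.8 FPKM in the aging and 254 ± 34.6 FPKM in the control libraries, and the iron carrier transferrin (Trf) with 126 ± 16.5 FPKM in the aging and 124 ± 8.57 FPKM in the control libraries. By the mean over the 6 libraries, 24 of the genes lay at 10 FPKM or more, 24 between 1 and 10 FPKM, and 4 under 1 FPKM. Apoe stood far above its neighbour in that order, whereas the ranges of Ttr, at 30.3 to 36.3 FPKM, and Apoa1, at 34.3 to 42.0 FPKM, overlapped over the 6 libraries. The macrophage markers, whose cells also make Apoe, summed to 1304 to 3136 CPM in the aging libraries and 1698 to 2617 CPM in the control libraries, and their part in the Apoe level was not tested.

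**Figure D1:**
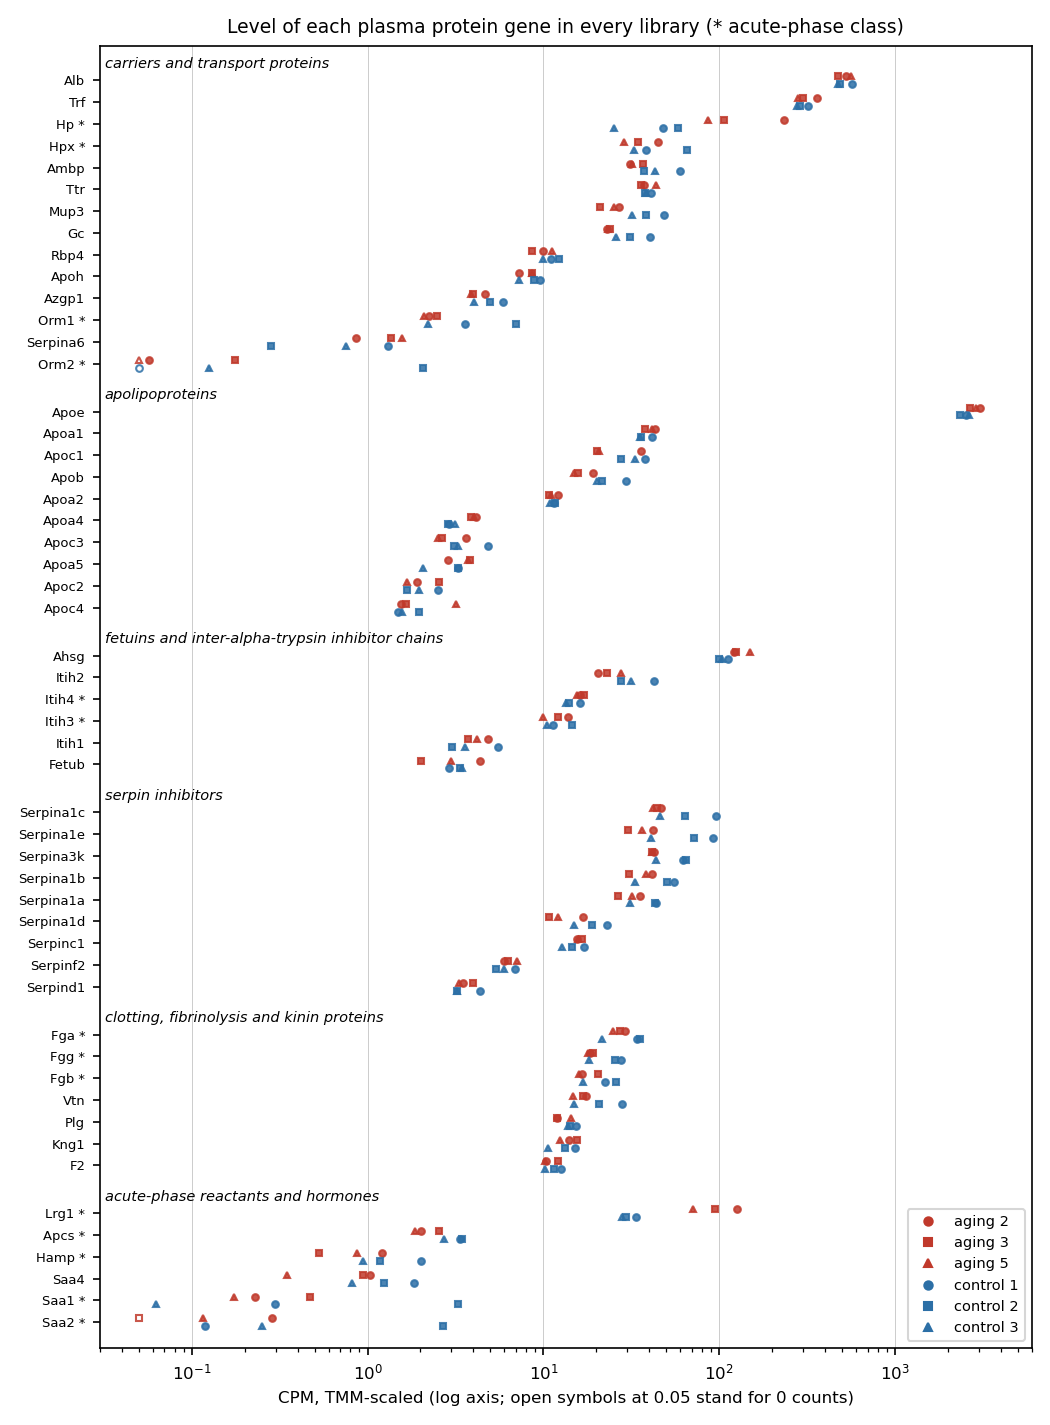
Level of each of the 52 plasma protein genes in every library, in CPM on a log axis, grouped by role and ordered by mean within a role, with 1 symbol per library. Most genes have overlapping red (aging) and blue (control) symbols, while Lrg1 and Hp lie higher in all 3 aging libraries and Saa1, Saa2 and Orm2 have 1 blue symbol, that of control replicate 2, far to the right.

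The comparison of the groups asked which of these transcripts differed between the aging and the control libraries. Of the 52 genes, 49 passed the filter on low counts, and 2 of the 49 passed the test, Lrg1 upward and Mup3 downward. That is 4.08% of the members tested, against 12.8% of all 13096 genes tested (edgeR quasi-likelihood test, adjusted p under 0.05 over all genes). An unadjusted edgeR p under 0.05 was found for 13 of the 49 members, against 4097 of all 13096 genes. In DESeq2 4 members passed, against 2348 of all 13096 genes. The groups did not overlap for 11 members, against 38% of all genes tested. They were higher in the aging libraries for 5 members, against 19.2% of all genes, and lower for 6, against 18.8%. Per the authors' deposited table, Hp and Apoe, 2 of the 52 genes, have an FDR under 0.05, against 14.3% of all genes. The median log2 fold change was -0.16 over the 49 members and -0.01 over all genes tested. In a mixed preparation, a difference in the number of hepatocytes and one in the RNA per hepatocyte cannot be told apart.

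The 3 constitutive carriers albumin, transthyretin and transferrin did not pass the test. Albumin, the main protein of plasma, stood at 524, 474 and 561 CPM in aging replicates 2, 3 and 5 and at 570, 484 and 473 CPM in control replicates 1, 2 and 3. The groups overlapped, and the log2 fold change was 0.03 with a 95% interval of -0.23 to 0.28. Transthyretin (Ttr), the carrier of thyroxine and of retinol-binding protein, stood at 39.0 ± 4.11 CPM in the aging libraries and 39.1 ± 1.79 CPM in the control libraries (SD, n = 3 each), with an interval of -0.24 to 0.23 on the log2 scale. Transferrin stood at 358, 299 and 280 CPM in aging replicates 2, 3 and 5, against 318, 286 and 277 CPM in control replicates 1, 2 and 3, again with overlapping groups. For these 3 genes the interval reached no further than 0.35 in either direction on the log2 scale.

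Mup3, a major urinary protein that binds pheromones and is under growth hormone control in the liver, was the only constitutive member of 38 to pass. It stood at 26.9, 20.9 and 25.3 CPM in aging replicates 2, 3 and 5, against 48.6, 38.1 and 31.9 CPM in control replicates 1, 2 and 3. The groups did not overlap, and Mup3 fell, at -0.70 ± 0.17 on the log2 scale (SE; edgeR adjusted p = 0.0383). In the authors' comparison Mup3 did not pass, with a log2 fold change of -0.40 (FDR = 0.202). Without aging replicate 2, 3 or 5, or without control replicate 1 or 2, Mup3 missed the threshold (edgeR adjusted p between 0.0507 and 0.110). Mup3 belongs to a gene family with related copies, of which 1 was compared: its transcript and that of Mup20 are 75.7% identical where they align and share 1.18% of 50-base windows. Reads shared with other copies were not measured.

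Ahsg and Fetub encode the fetuins, which inhibit mineral deposition or proteases. Ahsg, at 122, 124 and 150 CPM in aging replicates 2, 3 and 5 and 112, 99.6 and 104 CPM in control replicates 1, 2 and 3, was higher in all 3 aging libraries but did not pass (log2 fold change 0.33 ± 0.10, SE; edgeR adjusted p = 0.0757). Among the chains of the inter-alpha-trypsin inhibitor, which binds hyaluronan, Itih2 had a log2 fold change of -0.52 ± 0.18 (SE). Ambp had one of -0.49 ± 0.17 (SE), and neither gene passed. The vitamin D carrier Gc and Apob, the structural protein of very-low-density lipoprotein, were lower in CPM in all 3 aging libraries without passing. Gc stood at 23.4 ± 0.599 CPM in the aging libraries and 32.3 ± 7.37 CPM in the control libraries, and Apob at 16.6 ± 2.26 CPM in the aging libraries and 23.8 ± 5.11 CPM in the control libraries (SD, n = 3 each). The deposited FPKM of Apob overlapped, at 3.14 ± 0.595 in the aging and 3.24 ± 0.599 in the control libraries (SD). For Apob the authors' comparison gives a log2 fold change of the other sign, 0.30 (FDR = 0.662).

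None of the 10 apolipoproteins passed in edgeR or in DESeq2, and 5 had positive and 5 negative log2 fold changes. An unadjusted edgeR p under 0.05 was found for 1 of them, against 4097 of all 13096 genes. Apoe stood at 3023, 2677 and 2867 CPM in aging replicates 2, 3 and 5, against 2522, 2323 and 2622 CPM in control replicates 1, 2 and 3. It was higher in all 3 aging libraries by a small margin, with a log2 fold change of 0.20 ± 0.09 (SE; edgeR adjusted p = 0.20). The authors' deposited table gives Apoe an FDR of 0.0239 with a log2 fold change of 0.39. Apoa4, a lipid-binding protein that the intestine also makes, stood at 4.14, 3.90 and 4.01 CPM in aging replicates 2, 3 and 5 and 2.92, 2.87 and 3.15 CPM in control replicates 1, 2 and 3, and did not pass (edgeR adjusted p = 0.169). Apoc1, an inhibitor of lipoprotein uptake, passed downward only when aging replicate 2 was left out, with a log2 fold change of -0.69 (edgeR adjusted p = 0.0335, against 0.362 over all 6 libraries). Aging replicate 2 was the library with the highest sum of macrophage markers, and macrophages also make Apoc1; its part in this was not tested.

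None of the 9 serpin genes passed in edgeR, and 6 had negative log2 fold changes. In DESeq2 1 of them passed, Serpina1e, against 2348 of all 13096 genes. An unadjusted edgeR p under 0.05 was found for 4, against 4097 of all 13096 genes. The 5 genes Serpina1a to Serpina1e encode the mouse forms of alpha-1-antitrypsin, the inhibitor of neutrophil elastase. Summed, they stood at 182, 143 and 161 CPM in aging replicates 2, 3 and 5, against 310, 248 and 166 CPM in control replicates 1, 2 and 3. Control replicate 3 lay within the range of the aging libraries, so the groups overlapped. Serpina1e stood at 42.2, 30.4 and 36.3 CPM in aging replicates 2, 3 and 5 and 92.7, 71.4 and 40.9 CPM in control replicates 1, 2 and 3, with a log2 fold change of -0.91 ± 0.29 (SE; edgeR adjusted p = 0.0879). It passed without control replicate 3, at a log2 fold change of -1.17 (edgeR adjusted p = 0.0265). The 5 genes are close copies, with transcripts that are 95.7% to 98.2% identical where they align, and 20.3% to 57.5% of the 50-base windows of one transcript recur unchanged in another, so their separate values are uncertain. Serpina3k, an inhibitor of the alpha-1-antichymotrypsin type, stood at 42.7, 41.3 and 41.3 CPM in aging replicates 2, 3 and 5 and 62.5, 64.8 and 43.8 CPM in control replicates 1, 2 and 3. It passed only without control replicate 3, at a log2 fold change of -0.61 (edgeR adjusted p = 0.0254, against 0.0816 over all 6 libraries). The other 3 serpins are antithrombin, heparin cofactor II and alpha-2-antiplasmin (Serpinc1, Serpind1 and Serpinf2), which restrain clotting and its dissolution. Their log2 fold changes were positive, at most 0.11, and did not pass.

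None of the 7 genes for clotting, fibrinolysis and kinin proteins passed in edgeR or in DESeq2, and none had an unadjusted edgeR p under 0.05. Their log2 fold changes ran from -0.38 for vitronectin (Vtn), an adhesive glycoprotein, to 0.11 for the kinin precursor Kng1. The fibrinogen chains Fga, Fgb and Fgg, which are acute-phase genes and form the clot, had values of -0.16, -0.30 and -0.36, and in each of them the lowest control library lay within the range of the aging libraries or below it.

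**Figure D2:**
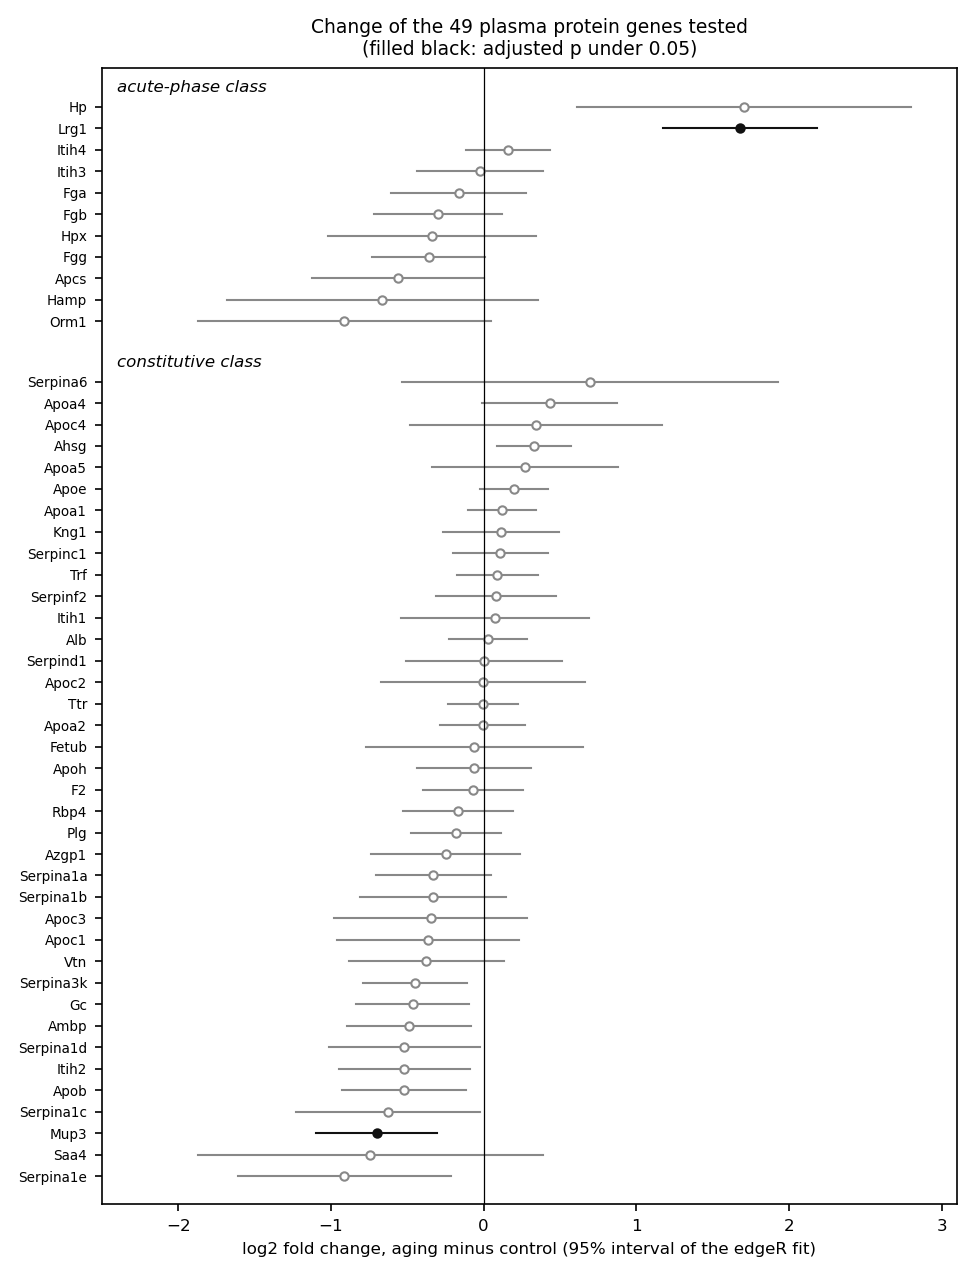
Log2 fold change, aging minus control, of the 49 plasma protein genes tested, with the 95% interval of the edgeR fit, in the acute-phase and the constitutive class. Lrg1 and Mup3 are filled because they passed the test, Hp lies at 1.71 with an interval above 0 without passing, and most intervals of the other genes include 0.

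Acute-phase and constitutive genes were then compared as classes, as counts and sums without a test, since the members were chosen with results known. Of 11 acute-phase genes tested 1 rose and none fell, 9.09% of them, and of 38 constitutive genes none rose and 1 fell, 2.63% of them, against 12.8% of all genes tested. The median log2 fold change was -0.30 in the acute-phase class and -0.07 in the constitutive class. The summed acute-phase level was 506, 337 and 276 CPM in aging replicates 2, 3 and 5, against 241, 287 and 173 CPM in control replicates 1, 2 and 3. Aging replicate 5 lay below control replicate 2, so the sums overlapped although their means stood at a ratio of 1.6. This ratio rested on Lrg1 and Hp: without both, the sum was 145, 136 and 118 CPM in aging replicates 2, 3 and 5 and 160, 200 and 119 CPM in control replicates 1, 2 and 3, a ratio of 0.834. The median of the class and the ratio of its sums therefore differed in sign. The constitutive sum without Apoe was 1532 ± 89.0 CPM in the aging libraries and 1635 ± 220 CPM in the control libraries (SD, n = 3 each), a ratio of 0.937.

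Lrg1 (ENSMUSG00000037095), leucine-rich alpha-2-glycoprotein, modifies TGF-beta signalling in endothelium and is induced in liver by inflammation. It stood at 127, 94.5 and 70.8 CPM in aging replicates 2, 3 and 5, against 33.7, 29.3 and 28.1 CPM in control replicates 1, 2 and 3. The groups did not overlap, and Lrg1 rose 3.2-fold, which is 1.68 ± 0.21 on the log2 scale (SE; edgeR adjusted p = 0.00791). It passed without any 1 of the 6 libraries as well, with edgeR adjusted p-values of 0.00155 to 0.0480. The authors' deposited table gives it a log2 fold change of 0.95 with an FDR of 0.104.

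Hp (ENSMUSG00000031722) encodes haptoglobin, which binds free haemoglobin. It stood at 235, 106 and 86.6 CPM in aging replicates 2, 3 and 5, against 47.6, 57.9 and 25.3 CPM in control replicates 1, 2 and 3. The groups did not overlap, but the aging libraries also lay far apart, and Hp did not pass, with a log2 fold change of 1.71 ± 0.46 (SE; edgeR adjusted p = 0.0564). It passed without aging replicate 5 (edgeR adjusted p = 0.0450), in DESeq2 (adjusted p = 0.0207) and, per the authors' deposited table, in the authors' comparison (FDR = 0.00647, log2 fold change 1.48).

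Transcripts of neutrophils, which also contain Hp and Lrg1, were higher in sum in the same libraries. All 9 neutrophil markers had positive log2 fold changes, and none was at 0 in any library. Of the 9, 6 passed, 66.7% of them, against 7.22% of all genes tested that rose. The 9 markers summed to 4489, 1928 and 1590 CPM in aging replicates 2, 3 and 5, against 511, 487 and 229 CPM in control replicates 1, 2 and 3. S100a8, which encodes a subunit of calprotectin, stood at 788, 289 and 287 CPM in aging replicates 2, 3 and 5 and 71.6, 68.3 and 30.2 CPM in control replicates 1, 2 and 3. Aging replicate 2 was the highest library and control replicate 3 the lowest for Hp, for Lrg1 and for the neutrophil sum. All 3 decreased in the order of aging replicates 2, 3 and 5. Among the control libraries Hp was highest in replicate 2 and the neutrophil sum in replicate 1. Lrg1 varied little there, from 28.1 to 33.7 CPM. The macrophage sum was also highest in aging replicate 2, at 3136 CPM. The part of neutrophils in the values of Hp and Lrg1 was not tested.

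**Figure D3:**
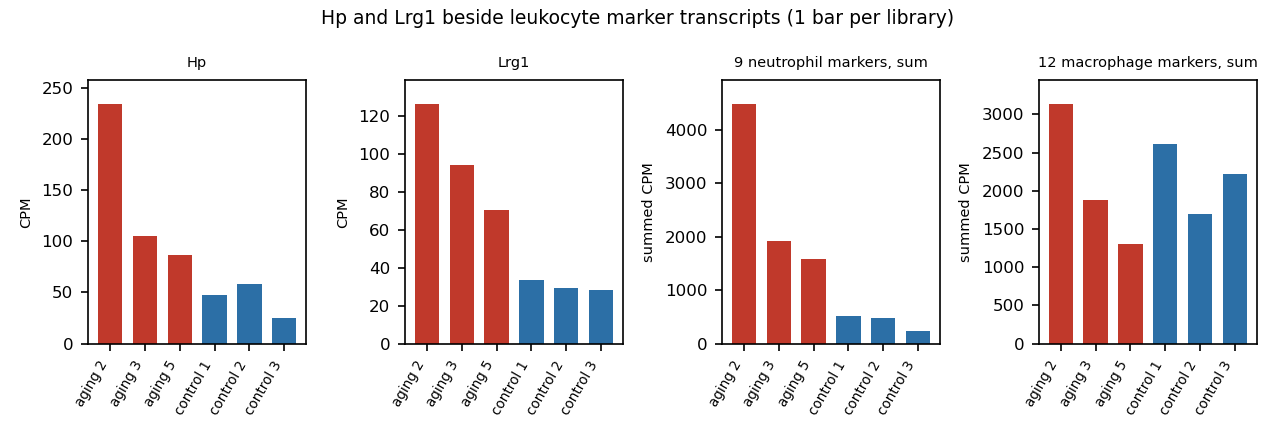
Levels of Hp and Lrg1 in every library beside the summed levels of 9 neutrophil and 12 macrophage markers, all in CPM, with 1 bar per library (red for aging, blue for control). Hp, Lrg1 and the neutrophil sum are highest in aging replicate 2 and lowest in control replicate 3. The macrophage sum is also highest in aging replicate 2 and overlaps between the groups.

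The other acute-phase genes did not pass, and 9 of the 14 acute-phase genes had their highest level in control replicate 2. Serum amyloid A1 and A2 (Saa1 and Saa2) are apolipoproteins that the mouse liver induces strongly in inflammation, and orosomucoid 1 and 2 (Orm1 and Orm2) are acid glycoproteins that bind drugs and lipids. Saa1 had 4, 8 and 3 counts in aging replicates 2, 3 and 5, against 5, 58 and 1 counts in control replicates 1, 2 and 3. Saa2 had 5, 0 and 2 counts in the aging replicates, against 2, 48 and 4 in the control replicates, and Orm2 had 1, 3 and 0 counts in the aging replicates, against 0, 37 and 2 in the control replicates. All 3 genes had at most 8 counts in 5 libraries and at least 37 in control replicate 2. There the exact 95% Poisson intervals, which cover counting error only, were 44 to 75 counts for Saa1, 35.4 to 63.6 for Saa2 and 26.1 to 51 for Orm2, above every interval of the other 5 libraries. For a count of 0, as for Saa2 in aging replicate 3, the interval reached 3.69 counts. These 3 genes failed the filter on low counts, and without the filter none of them passed (edgeR adjusted p of 0.260 to 0.386).

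Orm1 and haemopexin (Hpx), which binds free heme, were higher in the same library. Orm1 stood at 2.24, 2.48 and 2.09 CPM in aging replicates 2, 3 and 5 and at 3.58, 7.03 and 2.20 CPM in control replicates 1, 2 and 3. Its log2 fold change was -0.91 ± 0.41 (SE; edgeR adjusted p = 0.178) over all libraries and -0.35 without control replicate 2. Hpx stood at 44.5, 34.3 and 28.9 CPM in aging replicates 2, 3 and 5 and at 38.5, 65.1 and 32.7 CPM in control replicates 1, 2 and 3, and its log2 fold change of -0.34 ± 0.28 (SE) became 0.01 without control replicate 2. Albumin was not higher in that library, and Saa1 counts per 100 Alb counts were 0.0439, 0.0998 and 0.0311 in aging replicates 2, 3 and 5, against 0.0523, 0.674 and 0.0133 in control replicates 1, 2 and 3. Orm1 and Orm2 transcripts are 91% identical and those of Saa1 and Saa2 93.5%, so the split of counts within each pair is uncertain.

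**Figure D4:**
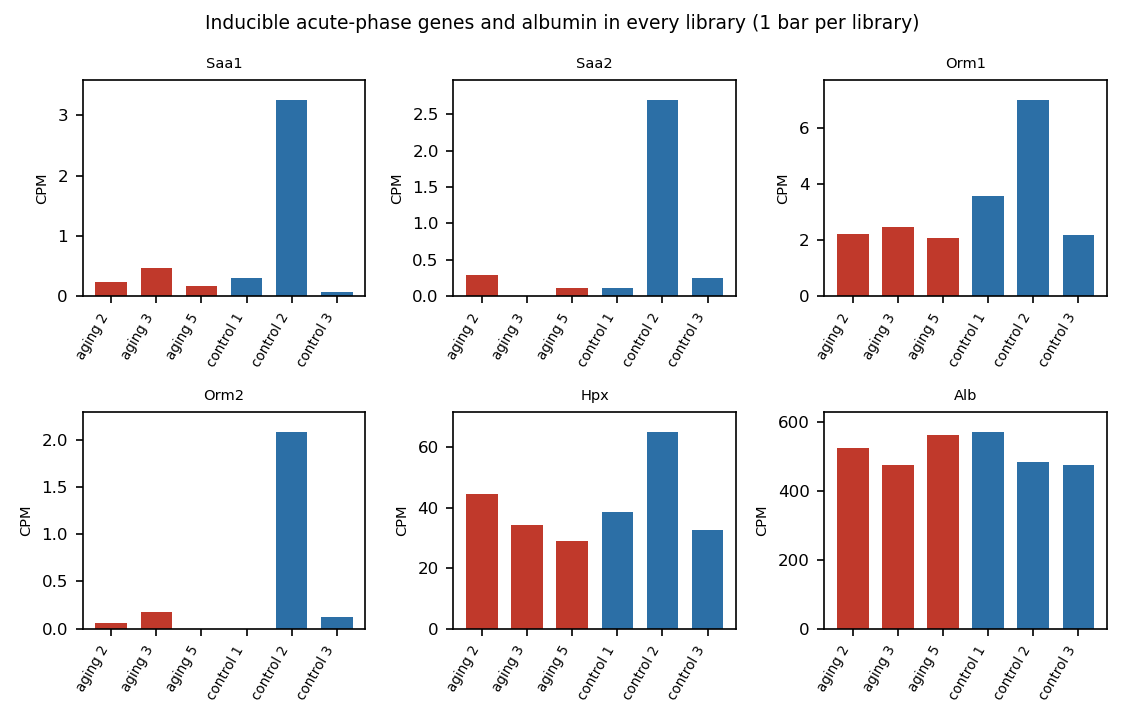
Levels of Saa1, Saa2, Orm1, Orm2, Hpx and Alb in every library, in CPM on linear axes from 0, with 1 bar per library (red for aging, blue for control). Control replicate 2 has the highest bar for the 5 acute-phase genes but not for albumin.

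Of the 14 acute-phase genes, 9 had their highest level in control replicate 2, against 2 of the 38 constitutive genes and 12.8% of all genes tested. The 9 include Saa1, Saa2 and Orm2, which failed the filter on low counts, whereas the share of all genes covers only genes that passed it. Of the constitutive genes 22 of 38 were highest in control replicate 1, the library that was highest for 17.2% of all genes tested. Control replicate 2 was at least 1.5 times the next library for Saa1, Saa2, Orm1 and Orm2 and for no other member, and 1.46 times for Hpx. For Fga, Fgb, Itih3 and Apcs it exceeded the next library by only 1.03 to 1.16 times. The other 5 acute-phase genes were highest elsewhere, Hp and Lrg1 in aging replicate 2, Itih4 in aging replicate 3, and Fgg and Hamp in control replicate 1. Hepcidin (Hamp), the hormone that blocks iron export, and serum amyloid P (Apcs), a main acute-phase reactant of mice, had log2 fold changes of -0.66 ± 0.44 and -0.56 ± 0.24 (SE). Itih3 and Itih4, the acute-phase chains of the inhibitor family, had values of -0.02 and 0.16, and none of these 4 passed. Saa4, the constitutive serum amyloid A, had 18, 16 and 6 counts in aging replicates 2, 3 and 5 and 31, 22 and 13 counts in control replicates 1, 2 and 3, and was highest in control replicate 1.

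Acute-phase transcription factors are known to act through sequences near the start of such genes. Promoters are therefore shown for the genes whose level in control replicate 2 stood furthest above the next library, Orm2, Saa2, Saa1 and Hpx, at 11.7, 9.38, 6.9 and 1.46 times, apart from Orm1. RefSeq promoter windows of build GRCm38.p6, from 250 bases before to 50 bases after the start, were used for 42 of the 52 genes, among them Saa1, Saa2, Orm2 and Hpx. Capitals mark matches to TTNNGCAA, a C/EBP-like motif, on either strand.
Saa1, chr7:46742931-46743230, minus strand: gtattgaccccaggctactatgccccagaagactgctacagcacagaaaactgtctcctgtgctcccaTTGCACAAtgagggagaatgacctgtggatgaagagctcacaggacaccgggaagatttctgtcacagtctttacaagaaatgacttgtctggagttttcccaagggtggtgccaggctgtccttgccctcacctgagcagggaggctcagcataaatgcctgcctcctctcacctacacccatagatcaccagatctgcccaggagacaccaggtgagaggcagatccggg
Saa2, chr7:46751583-46751882, plus strand: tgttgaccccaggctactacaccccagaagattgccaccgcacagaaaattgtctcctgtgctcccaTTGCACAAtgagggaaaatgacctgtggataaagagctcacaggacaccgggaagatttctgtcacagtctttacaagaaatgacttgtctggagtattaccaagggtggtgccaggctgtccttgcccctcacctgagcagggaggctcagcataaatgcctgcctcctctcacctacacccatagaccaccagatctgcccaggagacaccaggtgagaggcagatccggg
Orm2, chr4:63362199-63362498, plus strand: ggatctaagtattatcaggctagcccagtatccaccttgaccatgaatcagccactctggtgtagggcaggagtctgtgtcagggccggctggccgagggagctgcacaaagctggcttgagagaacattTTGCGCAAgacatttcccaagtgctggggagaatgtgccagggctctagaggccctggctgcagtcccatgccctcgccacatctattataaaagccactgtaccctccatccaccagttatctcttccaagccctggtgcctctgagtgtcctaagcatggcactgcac
Hpx, chr7:105600067-105600366, minus strand: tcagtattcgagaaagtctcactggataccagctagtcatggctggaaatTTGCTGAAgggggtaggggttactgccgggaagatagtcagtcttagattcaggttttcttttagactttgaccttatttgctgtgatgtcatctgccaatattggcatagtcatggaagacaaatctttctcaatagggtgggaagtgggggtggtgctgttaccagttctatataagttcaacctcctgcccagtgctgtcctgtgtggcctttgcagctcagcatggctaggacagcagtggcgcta

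The match began 182 bases before the start in Saa1, 183 in Saa2, 120 in Orm2 and 200 in Hpx. TTNNGCAA was found in 6 of 12 acute-phase and 16 of all 42 member promoters, against 10.8% of 27025 gene promoters of the same length. The matches include those of the close copies Saa1 and Saa2, and of Serpina1a, Serpina1b, Serpina1d and Serpina1e. Matches in close copies are not independent, so these shares cannot be read as an enrichment. In Serpina1a and Serpinc1 the match lay after the start. The STAT-like motif TTCNNNGAA was found in 5 of 12 acute-phase promoters and 6 of all 42, against 8.47% of gene promoters, but in none of these 4. Of the 9 acute-phase genes highest in control replicate 2, 8 had a window, with a C/EBP-like match in 6 (these 4, Fga and Fgb) and a STAT-like match in 3 (Fga, Fgb and Apcs), and Itih3 had neither. Matches to the NF-kB-like motif, GGG and TTTCC with 2 free bases between them, were found in 1 member promoter, against 1.62% of gene promoters, and to the HNF1-like motif GTTAATNAT in 3, against 0.836%, and neither was in these 4 windows. Both strands were searched, the marked matches overlap no other motif, and a match describes letters only.

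Of 18 genes of the interleukin 6, oncostatin M and interleukin 1 pathways, which endothelial cells and leukocytes also express, 8 rose and none fell (edgeR), 44.4% of them against 7.22% of all genes tested that rose, with a median log2 fold change of 0.65. In DESeq2 9 rose and none fell, against 1356 of all 13096 genes that rose. Stat3, the transcription factor of the acute-phase response, stood at 321, 318 and 473 CPM in aging replicates 2, 3 and 5, against 207, 220 and 218 CPM in control replicates 1, 2 and 3, and rose, at 0.79 ± 0.16 on the log2 scale (SE). Cebpb, a C/EBP factor of the acute phase, stood at 252, 157 and 140 CPM in aging replicates 2, 3 and 5, against 77.0, 64.2 and 52.8 CPM in control replicates 1, 2 and 3, and rose with a value of 1.5 ± 0.25. The cytokines Osm and Il1b rose with values of 2.46 ± 0.36 and 2.24 ± 0.40, and the receptor subunits Il1rap and Osmr with 1.65 ± 0.24 and 0.93 ± 0.18 (SE). Neutrophils and macrophages are known to make Osm and Il1b, and the neutrophil markers were higher in sum in the same libraries, as given above. The number of these genes that passed was 3, 1 and 2 without control replicate 1, 2 and 3, with Il1rap passing in each.

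Genes that act inside hepatocytes were set beside those for secreted proteins. Of 25 enzymes, transporters and other cellular genes of hepatocytes that were tested, 14 fell and none rose in edgeR and in DESeq2. That is 56% of them, against 5.59% of all genes tested that fell, and their median log2 fold change was -0.89, against 1 of 49 plasma protein genes that fell and a median of -0.16. The difference between these lists was not tested. The 11 cellular genes that did not pass were G6pc, Gls2, the tested cytochrome P450 enzymes, the transporters Slco1b2 and Slc10a1, and the receptors Asgr1 and Tfr2. The log2 fold changes of the cytochromes ran from -0.91 for Cyp2f2 to 0.07 for Cyp1a2. Those of the transporters and receptors ran from -0.89 for Slco1b2 to -0.07 for Tfr2. Pck1, a key enzyme of gluconeogenesis, stood at 10.6, 7.38 and 7.73 CPM in aging replicates 2, 3 and 5, against 35.3, 27.6 and 36.5 CPM in control replicates 1, 2 and 3. Tyrosine aminotransferase (Tat) fell, its log2 value being -2.30 ± 0.23 (SE), and the urea cycle enzyme Arg1 fell, at -1.74 ± 0.27 (SE). Glutamine synthetase (Glul), which also has sources outside hepatocytes, fell, at -1.06 ± 0.14 (SE).

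Levels were also set against albumin within each library. Pck1 counts per 100 Alb counts were 2.02, 1.56 and 1.38 in aging replicates 2, 3 and 5, against 6.19, 5.69 and 7.72 in control replicates 1, 2 and 3. Ttr counts per 100 Alb counts were 7.13, 7.57 and 7.78 in the aging replicates, against 7.21, 7.82 and 8.08 in the control replicates. The ratio of Pck1 to albumin did not overlap between the groups, and that of Ttr did. Among the other secreted proteins, Mup3 counts per 100 Alb counts were 5.12, 4.40 and 4.51 in aging replicates 2, 3 and 5, against 8.53, 7.86 and 6.74 in control replicates 1, 2 and 3. Those of Serpina1e were 8.04, 6.42 and 6.48 in the aging replicates, against 16.3, 14.7 and 8.65 in the control replicates. Neither of these ratios overlapped between the groups, although Serpina1e overlapped in CPM. The CPM of 38% of all genes tested did not overlap between the groups either. Albumin differed little between the groups, so these ratios largely restate the fold changes of Pck1, Mup3 and Serpina1e. The cellular genes without Glul summed to 165, 145 and 172 CPM in aging replicates 2, 3 and 5, against 359, 302 and 294 CPM in control replicates 1, 2 and 3. The number of cellular genes that passed was 8 without aging replicate 3 or control replicate 1 and 6 without control replicate 2, all downward.

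Of 38 further liver-secreted proteins that are no members, 32 were tested, with a median log2 fold change of -0.16. Of these 1 rose and 1 fell, 6.25%, against 12.8% of all genes tested. F5, clotting factor V, rose to 31.2, 29.1 and 24.7 CPM in aging replicates 2, 3 and 5, against 11, 10.3 and 4.34 CPM in control replicates 1, 2 and 3 (log2 fold change 1.73 ± 0.32, SE; edgeR adjusted p = 0.0219). Proc, the anticoagulant protein C, also differed past the threshold and fell, at -0.88 ± 0.21 (SE; edgeR adjusted p = 0.0349). F5 was lost without aging replicate 3 or control replicate 2, and Proc without any single library of the 6. Of 10 hepatocyte transcription factors tested 1 passed, 10% of them, against 12.8% of all genes tested. It was the bile acid receptor Nr1h4, which fell with -1.11 ± 0.29 (SE; edgeR adjusted p = 0.0454). Nr1h4 was lost without aging replicate 2 or 5 or without control replicate 1, 2 or 3.

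**Figure D5:**
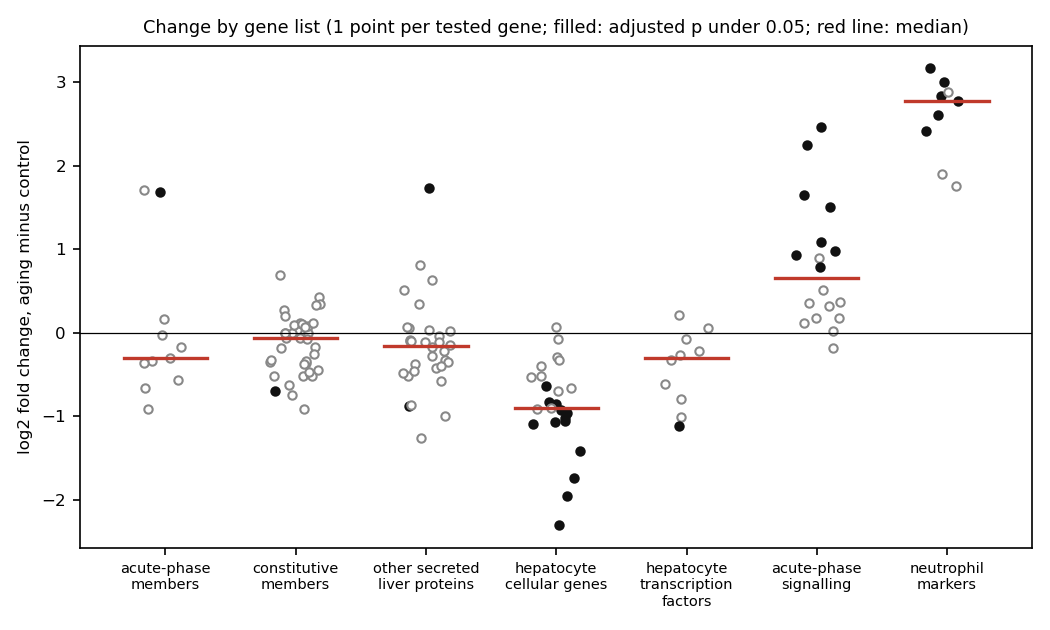
Log2 fold change, aging minus control, by gene list, with 1 point per tested gene, filled where the adjusted p was under 0.05, and a red line at the median of each list. Lrg1 and Hp lie above 1.6 and the other points of both classes of plasma protein genes between -0.91 and 0.69, those of the hepatocyte cellular genes lie mostly below 0 and those of the neutrophil markers above 1.75.

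Markers of the other cells of the liver were measured beside them. Of all 13096 genes tested, 2348 passed in DESeq2 and 4097 had an unadjusted edgeR p under 0.05. None of the 6 cholangiocyte markers passed in edgeR, against 1 in DESeq2 and 2 at an unadjusted edgeR p under 0.05. None of the 12 macrophage markers passed in edgeR, against 2 in DESeq2, 1 in each direction, and 2 at an unadjusted edgeR p under 0.05. Of these, the Kupffer cell receptor Timd4 had a log2 fold change of -1.29 ± 0.33 and lysozyme (Lyz2) one of 0.78 ± 0.30 (SE). Of 10 stellate cell markers 4 fell, 40% of them, against 5.59% of all genes tested that fell. The 10 stellate cell markers summed to 107 to 147 CPM in the aging libraries and 165 to 167 CPM in the control libraries. None of these markers was at 0 in any library.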

How the data were processed

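RNA of 6 mouse liver sinusoidal endothelial cell libraries had been sequenced. Per the file headers, the authors deposited counts and FPKM per gene and library for 22298 genes, with group means on an unstated scale (a score, not used here), and their own comparison (log2 fold change, FDR and p-value). The tools in the submitters' processing notes are HISAT2, Bowtie2, RSEM, StringTie 1.3.1 and fastp 0.18.0. Genome build, annotation and strand setting were not given in the sources used here. Overlapping and antisense genes may share reads.

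Groups were taken from the sample titles, because the age label contradicts them. Counts were tested as deposited, with edgeR 4.0.16 (R 4.3.3): TMM scaling, filterByExpr (minimum count 10, minimum total 15), the robust quasi-likelihood test of aging minus control, and Benjamini-Hochberg adjustment over 13096 genes at 0.05. CPM used TMM-scaled totals, standard errors are the log2 fold change over the root of F, and a list with no test is given by counts and medians. DESeq2 1.42.0, other scalings, no filter, a replicate block and each library left out were the alternatives. The script was tested on simulated data. Library pairs within a group differed by 8.4 to 54.5 times the counting noise, by chi-square over its degrees of freedom, so none was a repeat deposit. Poisson intervals cover counting error only. Promoters came from the RefSeq table of GRCm38.p6, and transcript identities from local alignment with Biopython 1.88 of the longest coding transcripts.

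The members, the gene lists and the split into classes were chosen with earlier results of these data known. Named by rule were members past the threshold, acute-phase members, the 6 members of highest mean level, members whose call changed when a library was left out, close copies, and up to 6 genes of smallest adjusted p in each other list. Ttr, Apoa4, Apob, Gc, Itih2, Ambp, Saa4, Vtn and Kng1 were named after their values were seen. So were Camp, Ngp and the cellular genes of hepatocytes that did not pass. Some genes that the rule names are not reported here.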

Additional observations from a re-analysis of the deposited data

How the results depend on the processing

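Lrg1 passed under every alternative run. The number of all genes passing was 1678, against 2348 in DESeq2, and ranged from 268 to 2121 with 1 library left out. Upper-quartile scaling turned the split of 946 higher and 732 lower into 823 and 969. Of the members, 2 passed, against 4 in DESeq2 and 1 to 4 with 1 library left out. For the acute-phase class the count was 1, against 2 in DESeq2 and 1 to 2 with 1 library left out, and for the constitutive class 1, against 2 in DESeq2 and 0 to 3. With 1 library left out the count was 0 to 2 for the other secreted proteins, 6 to 14 for the hepatocyte cellular genes, 0 to 1 for the hepatocyte transcription factors (2 in DESeq2) and 1 to 8 for the signalling genes. The cause was not tested, beyond the smaller number of libraries. The log2 ratio of the acute-phase sums was 0.67, and -0.26 without Hp and Lrg1, and that of the constitutive sums 0.09, -0.0943 without Apoe and -0.14 without Apoe and Trf; the choices to leave out Hp with Lrg1 and Apoe with Trf were made after seeing the data. Signs turned for Alb, Itih3 and Trf, whose values were near 0, and for Hpx, whose value was -0.34 over all libraries. Alb had -0.0185 under upper-quartile scaling and -0.0282 to 0.123 with 1 library left out, Itih3 -0.139 to 0.123, Hpx -0.529 to 0.0127 and Trf -0.0190 to 0.161. With the replicate number as a block, 4 members passed (2 acute-phase, 2 constitutive), Hp and Serpina1e among them, with 1 other secreted protein and 0 transcription factors, and Fga and Itih3 turned to 0.0291 and 0.0588. Only numbers 2 and 3 occur in both groups, and the deviations of same-numbered libraries correlated at -0.06 and -0.04 across genes. Those of differently numbered libraries correlated at -0.251 to 0.244. No pairing by number was seen, but so few correlations, taken over groups of 3, cannot exclude one.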
